A study of Mus musculus with 12 samples.

Results

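The genes described here are 28 genes of fatty acid oxidation and ketone body metabolism, taken by gene symbol from a count table of 52550 features. All 28 were found, each in 1 row, and all 28 passed the filter on low counts, which kept 14990 features. RNA on the ribosomes of cortical astrocytes was isolated from somatosensory cortex of mice at postnatal day 40 on a mixed FVB/C57 background by TRAP, in which an eGFP-tagged ribosome is pulled down with an antibody. The tag is carried by the Aldh1l1-TRAP transgene, whose Aldh1l1 promoter is active in astrocytes, and both groups carry it. The groups are Fmr1+/y Aldh1l1-TRAP (wild type, libraries 13, 15 and 17) and Fmr1-/y Aldh1l1-TRAP (Fmr1 knockout, libraries 14, 16 and 18). Fmr1 encodes FMRP, an RNA-binding protein that acts in translation, and the genotype as labelled is that of the whole animal, not of astrocytes alone. The labels do not say whether the 3 libraries of a group come from separate animals, so each p-value measures the spread between these libraries, part of which may be technical.

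Fatty acids are activated to acyl-CoA, carried into mitochondria by the carnitine shuttle and shortened in a repeated cycle of oxidation, hydration, oxidation and thiolysis, which yields acetyl-CoA and passes electrons to the respiratory chain through the electron transfer flavoprotein. In the liver acetyl-CoA also feeds the synthesis of ketone bodies, which other tissues turn back into acetyl-CoA. In the brain astrocytes are regarded as the main cells that oxidise fatty acids, while ketone bodies are used by neurons and glia alike. PPARA, a nuclear receptor that binds fatty acids, switches on many genes of this pathway in liver and other tissues.

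No difference between the genotypes was detected for any of the 28 genes. By edgeR's quasi-likelihood test 0 of 28 passed an adjusted p of 0.05, beside 0 of 14990 genes tested (0% called), and 0 of 28 had an unadjusted p under 0.05, beside 1.77% of all genes. Fmr1 itself, at a log2 fold change of -3.53, was not called in this edgeR fit (adjusted p = 0.300). A gene without a call is therefore not shown to be unchanged. DESeq2 called 7 genes in all and 0 of the 28. In the knockout 12 of the 28 were higher and 16 lower, with a median log2 fold change of -0.016 against -0.0019 over all genes. Single values ran from -0.25 for Cpt2 to 0.34 for Fabp7. In 0 of the 28 did the 3 knockout libraries all lie above the 3 wild-type libraries, beside 2.95% of all genes, and in 0 did they all lie below, beside 3.25%. In the authors' deposited table, which tests the 12 entries of these 6 libraries, 0.573% of features have an adjusted p under 0.05 and 0 of the 28 are among them.

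The 95% intervals rest on the same test statistic as the p-values. As bounds on a genotype difference they hold only if the libraries are independent replicates, which the labels do not say. The intervals come from the fit without covariates, in which log2 fold changes of the 28 genes ran from -0.25 to 0.34. With the share of ribosomal RNA as a covariate they ran from -0.50 to 0.27. For 23 of the 28 genes the 95% interval of the fold change lay wholly within a 1.5-fold change in either direction, and for all 28 it lay within 2-fold. The 5 genes with a wider interval were Cpt2, Ehhadh, Acsl3, Fabp7 and Ppara. Standard errors of the log2 fold change ran from 0.13 to 0.25. Counts behind each value ran from 76 for Ehhadh in knockout library 16 to 33085 for Acsbg1 in wild-type library 13. The counts of Acadvl, Oxct1, Fabp5, Acsl3, Bdh1 and Hadhb are not whole numbers, within 0.001, in any of the 12 deposited entries, those of Eci2 and Etfb in 2 entries each and those of Etfdh in 6, which marks reads that match several places and were divided by estimate. The split into higher and lower genes rested on single libraries: without wild-type library 13, 22 of the 28 were higher and 6 lower in the knockout, without wild-type library 17, 6 were higher and 22 lower, and without knockout library 18, 18 were higher and 10 lower.

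**Figure D1:**
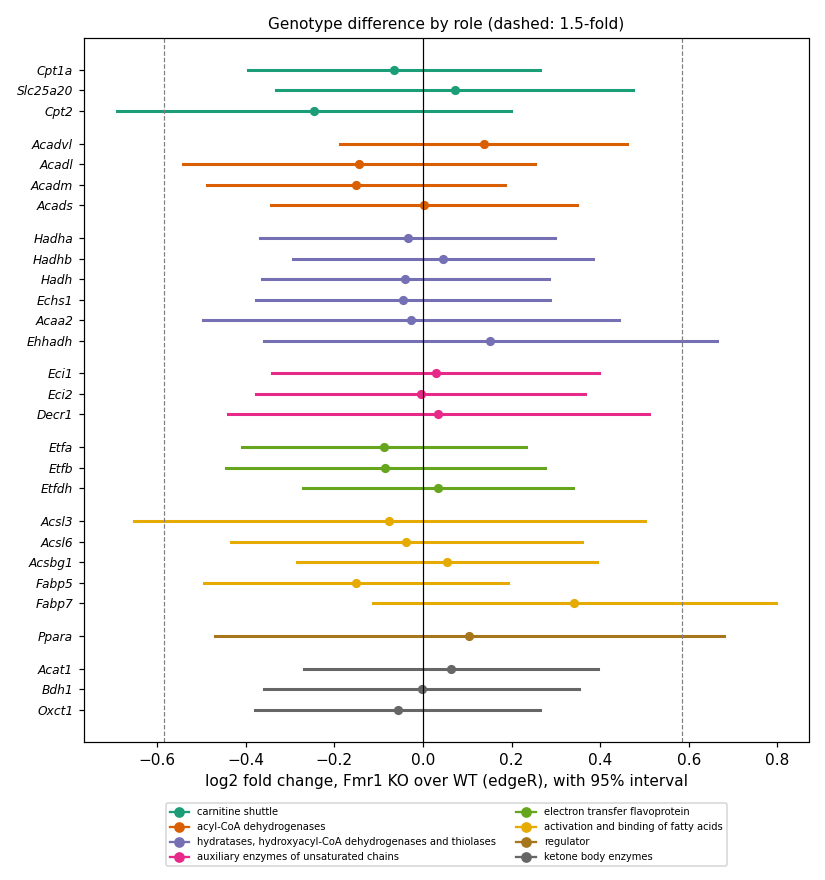
Log2 fold change of each of the 28 genes, knockout over wild type, from edgeR's quasi-likelihood fit on 3 libraries per genotype, grouped by role; lines are 95% intervals and dashed lines mark 1.5-fold. Every interval crosses 0, and those of Cpt2, Ehhadh, Acsl3, Fabp7 and Ppara reach past a dashed line.

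The smallest library, knockout 16, held 10953958 counts and the largest, wild type 15, 22397202. Reads of ribosomal RNA, which collect on 3 features, took 35.6% and 45.1% of the counts of knockout libraries 14 and 16 and between 0.892% and 7.45% elsewhere. Levels are therefore given as CPM (counts relative to the library total) with TMM scaling, which largely sets such a share aside. Fmr1 itself stood between 1.32 and 4.32 CPM in the knockout and between 31.6 and 38.4 CPM in the wild type. The median over the 16 astrocyte markers tested was 620.1 CPM. No gene length was at hand, so levels are compared between libraries only.

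The start regions of the genes were read from RefSeq (GRCm38.p6), as windows from 250 bases before to 50 bases after the transcript start, which matched 24 of the 28 symbols and not Acaa2, Decr1, Fabp5 and Acat1. Nuclear receptors of the PPAR type bind a direct repeat of AGGTCA with 1 base, of any kind, between the repeats. On either strand that repeat was in 0 of the 24 genes' windows and in 0.0481% of all 27025 genes with a window. An exact match is so rare in all genes that the 0 does not set the 24 apart. Imperfect repeats were not searched. The single unit AGGTCA, which the repeat contains, was in 6 of the 24 (Acadm, Acadvl, Acsl6, Cpt1a, Echs1 and Fabp7), against 18.1% of all genes. The GC box GGGCGG was in 18 of the 24, against 38.2% of all genes, and the motif of the respiratory gene factor NRF1 (GCGCA, any base, GCGC) in Etfb, Etfdh and Ppara, against 5.19%. AGGTCA preceded by TCA, sharing its letters with AGGTCA, was in Acsl6 alone, against 0.466%, and CCAAT in 11 of the 24, against 41.1%. These are matches of letters in windows of 300 bases and say nothing of binding.

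The 250 bases before a transcript start are shown for 4 genes, 5′ to 3′ along the gene's own strand, with the matched letters in capitals. The gene bounds of Cpt1a begin further upstream, at chr19:3322326, so its window lies inside the annotated gene, before a later transcript start. Cpt1a (chr19:3323051-3323300, plus strand) and Acadvl (chr11:70015429-70015678, minus strand) encode the entry step and the first dehydrogenase for long chains, and Fabp7 (chr10:57784673-57784922, plus strand) has the highest fold change of the 28. In these 3 the capitals mark AGGTCA or its reverse complement, which begins at position -87 from the start in Acadvl, -94 in Cpt1a and -171 in Fabp7. Hadhb (chr5:30155003-30155252, plus strand) is shown since 272 bases lie between it and Hadha, the partner subunit gene, which is read from the opposite strand, so that the sequence spans most of the stretch between the genes. Its capitals mark the 2 GC boxes (GGGCGG or its reverse complement) before the start.
Cpt1a: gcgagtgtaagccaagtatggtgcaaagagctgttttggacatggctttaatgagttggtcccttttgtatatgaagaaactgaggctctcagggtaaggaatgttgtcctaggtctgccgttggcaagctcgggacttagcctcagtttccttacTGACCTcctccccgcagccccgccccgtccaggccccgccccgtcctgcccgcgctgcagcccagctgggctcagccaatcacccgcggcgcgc
Acadvl: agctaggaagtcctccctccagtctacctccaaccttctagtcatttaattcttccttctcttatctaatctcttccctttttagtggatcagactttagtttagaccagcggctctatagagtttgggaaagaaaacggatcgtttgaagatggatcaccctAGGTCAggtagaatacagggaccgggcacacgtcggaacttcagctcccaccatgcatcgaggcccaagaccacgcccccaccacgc
Fabp7: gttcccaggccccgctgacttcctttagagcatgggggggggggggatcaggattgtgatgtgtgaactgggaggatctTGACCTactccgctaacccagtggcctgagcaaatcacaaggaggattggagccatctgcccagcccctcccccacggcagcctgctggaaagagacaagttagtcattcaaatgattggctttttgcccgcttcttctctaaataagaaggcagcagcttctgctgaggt
Hadhb: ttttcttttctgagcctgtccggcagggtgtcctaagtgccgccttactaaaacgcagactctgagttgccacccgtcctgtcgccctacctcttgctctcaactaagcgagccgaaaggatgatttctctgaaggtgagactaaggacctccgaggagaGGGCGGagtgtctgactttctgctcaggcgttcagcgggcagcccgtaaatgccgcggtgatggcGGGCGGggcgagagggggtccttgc

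The carnitine shuttle lets long-chain acyl groups cross the inner mitochondrial membrane. Cpt1a, the outer membrane transferase that controls entry, measured 160.2, 135 and 131 CPM in the wild type (libraries 13, 15 and 17) and 133, 148 and 126 CPM in the knockout (libraries 14, 16 and 18), the order used for each gene from here on. The ranges overlap, and library 13 is the highest. Its log2 fold change was -0.065 (SE 0.14, 95% interval -0.40 to 0.26). Slc25a20, the carnitine carrier of the inner membrane, measured 69.0, 49.1 and 58.4 CPM in the wild type and 58.4, 72.8 and 54.6 CPM in the knockout (log2 fold change 0.072, SE 0.18). Knockout library 16 holds its highest value and wild-type library 15 its lowest. Cpt2, the transferase on the matrix side, measured 36.1, 32.03 and 22.7 CPM in the wild type and 27.0, 22.4 and 27.0 CPM in the knockout. The means of Cpt2 were 25.5 ± 2.65 and 30.3 ± 6.90 CPM in knockout and wild type (SD, n = 3 per genotype), the lowest fold change of the 28 genes (log2 -0.25, SE 0.19, 95% interval of the fold 0.620 to 1.148). Wild-type library 17, at 22.7 CPM, lay among the knockout libraries, and without it the log2 fold change of Cpt2 was -0.42, against -0.10 without wild-type library 13. The exact permutation p of Cpt2 over the 6 libraries was 0.4, where 0.1 is the smallest that 3 against 3 can give.

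Each round of the cycle opens with an acyl-CoA dehydrogenase, chosen by chain length. Acadvl, for very long chains, measured 158, 135 and 123 CPM in the wild type and 154, 148 and 157 CPM in the knockout. Its knockout libraries lie close together, within the wild-type range (means 153 ± 4.60 and 139 ± 17.8 CPM, SD, n = 3 per genotype; log2 fold change 0.14, SE 0.14). Acadl, for long chains, measured 111, 80.7 and 111 CPM in the wild type and 88.7, 104 and 81.7 CPM in the knockout, and Acadm, for medium chains, 106, 89.4 and 94.0 CPM in the wild type and 95.6, 89.4 and 75.4 CPM in the knockout. Acadl and Acadm had log2 fold changes of -0.14 (SE 0.17) and -0.15 (SE 0.15), with the lowest value of Acadm in knockout library 18 and of Acadl in wild-type library 15. Acads, for short chains, had a log2 fold change of 0.0031 (95% interval -0.34 to 0.35), with means of 41.4 ± 3.79 and 41.2 ± 5.89 CPM in knockout and wild type (SD, n = 3 per genotype). Of these 4 genes, 2 were higher and 2 lower in the knockout and 0 passed the test.

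Hydration, the next oxidation and thiolysis follow. Hadha and Hadhb encode the alpha and beta subunits of the mitochondrial trifunctional protein, which carries out the later steps for long chains. Hadhb measured 451, 384 and 342 CPM in the wild type and 421, 410.2 and 384 CPM in the knockout, and Hadha 194, 185 and 154 CPM in the wild type and 187, 162 and 171 CPM in the knockout. Log2 fold changes were 0.045 for Hadhb and -0.034 for Hadha (SE 0.15 and 0.15). The ratio of Hadhb to Hadha within a library stayed between 2.07 and 2.53 in all 6 libraries. Echs1, the hydratase for short chains, measured 248, 199 and 195 CPM in the wild type and 205, 214 and 203 CPM in the knockout (log2 fold change -0.044, 95% interval -0.38 to 0.29), and Hadh, the dehydrogenase for shorter hydroxyacyl chains, had a log2 fold change of -0.039 (95% interval -0.36 to 0.28). Library 13 held the highest value of each of these 4 genes.

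Acaa2, the thiolase that releases acetyl-CoA, spread widely within the wild type, with 237, 167 and 139 CPM in the wild type against 176, 191 and 165 CPM in the knockout. All knockout libraries lie inside the wild-type range. Its log2 fold change was -0.026 (SE 0.20) and moved from -0.19 without wild-type library 17 to 0.22 without wild-type library 13. Ehhadh, the bifunctional enzyme of peroxisomes, had the lowest counts of the 28 and measured 10.5, 7.82 and 10.4 CPM in the wild type and 12.7, 10.7 and 8.63 CPM in the knockout (log2 fold change 0.15, SE 0.22).

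Unsaturated chains need extra enzymes that move or reduce their double bonds. Eci1 and Eci2, isomerases of enoyl-CoA, had log2 fold changes of 0.029 and -0.0048 (SE 0.16 and 0.16). Eci2 measured 250.1, 198 and 203 CPM in the wild type and 194, 250.1 and 206 CPM in the knockout, so that wild-type library 13 and knockout library 16 stood level above the rest. Decr1, the dienoyl-CoA reductase, measured 163, 119 and 108 CPM in the wild type and 142, 153 and 105 CPM in the knockout (log2 fold change 0.035, SE 0.21). Libraries 13, 14 and 16 are high in Decr1 and libraries 15, 17 and 18 low, in either genotype.

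Electrons from the dehydrogenases pass to the flavoprotein formed by Etfa and Etfb and on to its oxidoreductase Etfdh. Etfa measured 86.0, 73.2 and 72.1 CPM in the wild type and 76.0, 76.3 and 65.4 CPM in the knockout (log2 fold change -0.088, SE 0.14). Etfb measured 186, 139 and 137 CPM in the wild type and 146, 147 and 143 CPM in the knockout, with library 13 apart from the other 5, which lie between 137 and 147 CPM. Its log2 fold change of -0.084 (SE 0.16) became 0.074 without library 13. Etfdh had the smallest standard error of the 28, with means of 92.5 ± 6.40 and 90.3 ± 7.15 CPM in knockout and wild type (SD, n = 3 per genotype) and a log2 fold change of 0.034 (SE 0.13, 95% interval of the fold 0.829 to 1.26).

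Fatty acids are bound in the cytosol by FABPs and activated by acyl-CoA synthetases before they are burned or built into lipids. Fabp7, the brain form of the binding protein, which marks astrocytes and their precursors, had the highest fold change of the 28 genes. It measured 562, 419.5 and 450.2 CPM in the wild type and 765, 517 and 532 CPM in the knockout. Knockout library 14 stood apart, and the other knockout libraries lay within the wild-type range. The means of Fabp7 were 605 ± 139 and 477 ± 74.9 CPM in knockout and wild type (SD, n = 3 per genotype; log2 fold change 0.34, SE 0.20, edgeR p = 0.121, adjusted p = 1.00, exact permutation p = 0.3). Without knockout library 14 the log2 fold change of Fabp7 was 0.14, and without libraries 14 and 16 it was 0.18. Fabp5, the epidermal form, also found in astrocytes, measured 779, 589.8 and 731 CPM in the wild type and 662, 633 and 595 CPM in the knockout (log2 fold change -0.15, SE 0.15). The level of Fabp5 rests in part on reads divided by estimate.

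Among the synthetases, Acsbg1, the bubblegum form for long and very long chains, measured 1409, 1207 and 1075 CPM in the wild type and 1343, 1222 and 1269 CPM in the knockout, with knockout libraries inside the wild-type range (log2 fold change 0.055, 95% interval -0.28 to 0.39). Acsl6, a long-chain form of brain, measured 652, 557 and 454 CPM in the wild type and 546, 599.6 and 476 CPM in the knockout (log2 fold change -0.037, SE 0.17). Acsl3, a long-chain form linked to lipid droplets, varied widely within each genotype, with 359, 328 and 216 CPM in the wild type and 279, 367 and 212 CPM in the knockout. The lowest values of Acsl3 were in wild-type library 17 and knockout library 18, and its fold change had the largest standard error of the 28 (log2 -0.076, SE 0.25, 95% interval of the fold 0.636 to 1.42).

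Ppara, which encodes the fatty acid receptor, measured 17.7, 12.8 and 10.03 CPM in the wild type and 16.5, 15.8 and 11.5 CPM in the knockout. Both genotypes span about the same range, with libraries 17 and 18 lowest. Its log2 fold change was 0.10 (SE 0.25, 95% interval of the fold 0.722 to 1.60), and it turned to -0.073 without wild-type library 17.

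Ketone bodies are interconverted by Bdh1, made usable by Oxct1 and split by Acat1, which also acts in the breakdown of isoleucine. Oxct1, the enzyme that commits a tissue to using ketone bodies, measured 513, 459 and 458 CPM in the wild type and 513, 443 and 418 CPM in the knockout, with knockout library 18 lowest (log2 fold change -0.057, SE 0.14). Bdh1, the hydroxybutyrate dehydrogenase, measured 156, 114 and 137 CPM in the wild type and 131, 129 and 146 CPM in the knockout, and its log2 fold change was -0.0030 (95% interval -0.36 to 0.35). Acat1 measured 181 ± 10.6 and 173 ± 22.0 CPM in knockout and wild type (SD, n = 3 per genotype; log2 fold change 0.063, 95% interval -0.27 to 0.39). For these 3 genes a fold change beyond 1.5 in either direction lies outside the 95% interval.

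**Figure D2:**
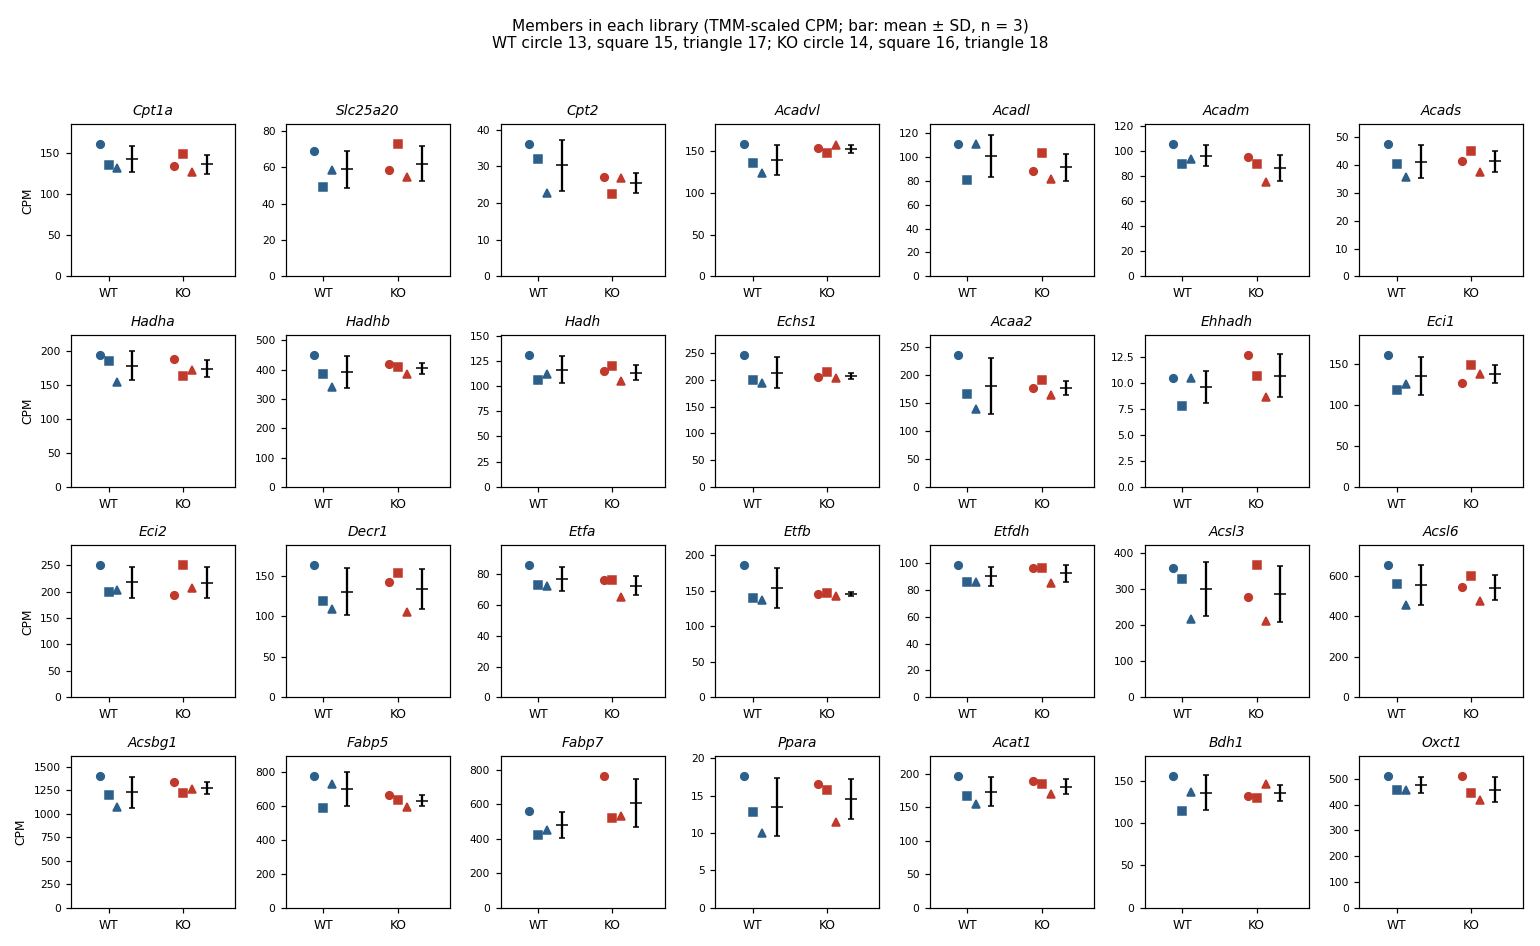
TMM-scaled CPM of each of the 28 genes in 3 wild-type libraries (blue) and 3 knockout libraries (red), each panel with its own axis from 0; black bars are mean ± SD. The 2 groups overlap in each panel, and wild-type library 13, the blue circle, is the highest of the 6 libraries for 22 genes.

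Most of the 28 genes were highest in the same library. The order of the knockout libraries differed between genes, with Acadvl highest in library 18, Fabp7 in 14 and Acsl3 in 16. Correlations between the genes were not computed. In wild-type library 13 all 28 stood above the mean of the wild-type libraries, beside 51.5% of all genes, although library 13 is 1 of the 3 in that mean, and for 22 genes it was the highest of the 6 libraries. In wild-type libraries 15 and 17 only 4 and 5 of the 28 stood above that mean, and in knockout libraries 14, 16 and 18 the counts were 13, 19 and 5. Over all 14990 genes the counts were 8231 and 7605 in wild-type libraries 15 and 17. They were 8051, 7548 and 7697 in knockout libraries 14, 16 and 18. High values in library 13 raise the mean, so the low counts in libraries 15 and 17 follow in part from it. The median over the 28 genes, relative to the wild-type mean on the log2 scale, was 0.21, -0.075 and -0.12 in wild-type libraries 13, 15 and 17 and -0.0039, 0.085 and -0.11 in knockout libraries 14, 16 and 18. The wild-type range of this median, from library 17 to library 13, exceeds the difference between the genotypes.

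Astrocyte markers, like the 28 genes, had their lowest medians in libraries 17 and 18 and their highest in libraries 13 and 16. Relative to the wild-type mean, their median over 16 genes was 0.28, 0.070 and -0.39 in wild-type libraries 13, 15 and 17 and 0.11, 0.28 and -0.31 in knockout libraries 14, 16 and 18. The 16 neuron markers ran the other way, at -0.62, 0.23 and 0.40 in the wild type and 0.042, -0.20 and 0.52 in the knockout, and the 12 oligodendrocyte markers from -0.69 in knockout library 16 to 0.71 in knockout library 18. Summed over its markers, the astrocyte level ran from 21050.3 to 28778 CPM in the knockout and from 21775 to 28960.1 CPM in the wild type, and the neuron level from 2187 to 3157 and from 1578 to 2987 CPM. No marker of either list was at 0 in all libraries. Between the genotypes the median log2 fold change was -0.0055 over the astrocyte, 0.094 over the neuron, 0.13 over the oligodendrocyte, -0.23 over the microglia and -0.12 over the endothelial markers. In such bulk samples a smaller share of astrocyte ribosomes and less RNA per astrocyte cannot be told apart, and the part of these markers in the levels of the 28 genes was not tested. With the astrocyte marker median as a covariate, an alternative chosen after seeing the data, 0 of the 28 passed and their median log2 fold change was -0.023.

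The library titles carry a first number, 5 for libraries 13, 14 and 16 and 6 for libraries 15, 17 and 18, which the labels do not explain. All 28 genes had a higher mean in the libraries with 5, beside 50.4% of all genes, and in 13 of the 28 each library with 5 lay above each library with 6, beside 9.75% of all genes. Those 13 were Slc25a20, Acads, Hadhb, Hadh, Echs1, Acaa2, Ehhadh, Decr1, Etfa, Etfb, Etfdh, Ppara and Acat1. The median difference over the 28 was 0.18 on the log2 scale, against 0.49 over the 16 astrocyte markers, of which 15 were higher and 7 did not overlap, and -0.65 over the 16 neuron markers, of which 0 were higher. Genotype and title number are not balanced, since 2 knockout libraries and 1 wild-type library carry the 5.

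Within the libraries with 5, where knockout libraries 14 and 16 stand against wild-type library 13 alone, 26 of the 28 genes were lower and 2 higher in the knockout (median -0.16 on the log2 scale, from -0.55 for Cpt2 to 0.16 for Fabp7). All 28 stood above the wild-type mean in library 13, so this split rests on that library. The same split was not counted over all genes. Within the libraries with 6, where knockout library 18 stands against wild-type libraries 15 and 17, 13 were lower and 15 higher (median 0.011, from -0.33 for Acsl3 to 0.29 for Fabp7). With the title number as a covariate 24 of the 28 were lower and 4 higher, with a median log2 fold change of -0.088 and 0 that passed. The median over all genes in that fit was -0.0058. Without knockout libraries 14 and 16, which hold the ribosomal RNA and leave 1 knockout library, assumed to vary like the others, 23 were lower and 5 higher. Their median was then -0.11, against 0.0028 over all genes.

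**Figure D3:**
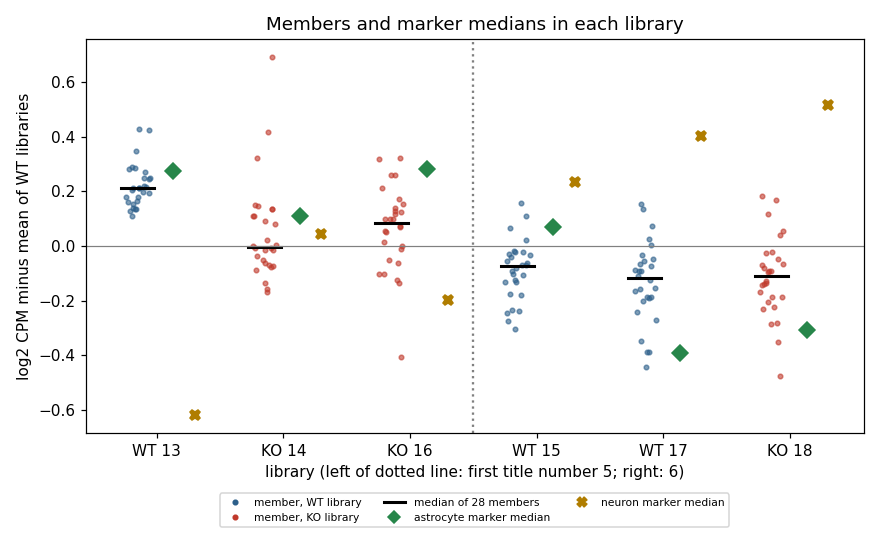
Log2 CPM of each of the 28 genes minus its mean over the wild-type libraries, by library, with the medians of the 28 genes (bar), of the astrocyte markers (diamond) and of the neuron markers (cross). All 28 points of wild-type library 13 lie above 0, and the bars and diamonds are lowest in wild-type library 17 and knockout library 18.

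Ratios within a library do not depend on the scaling between libraries. Of the 378 ratios between 2 of the 28 genes, 7.94% had no overlap between the genotypes in either direction. Group labels given at random to 3 against 3 libraries would leave a share of 0.1 without overlap, and 7.94% is not above that. Single genes of these data gave less, 2.95% with the knockout above and 3.25% with it below. The share of 0.1 is thus not the rate seen here, and no conclusion is drawn from it. The share over ratios of all genes was not computed. Fabp7 to Fabp5, named after its values were seen, was among them, at 0.722, 0.711 and 0.616 in wild-type libraries 13, 15 and 17 and 1.16, 0.816 and 0.895 in knockout libraries 14, 16 and 18. Each knockout library is above each wild-type library, and the means were 0.956 ± 0.178 and 0.683 ± 0.0584 (SD, n = 3 per genotype; exact two-sided permutation p = 0.1, the smallest this design allows). On the log2 scale the difference was 0.47, and it was 0.33 without knockout library 14, where Fabp7 is highest. The 30 ratios without overlap share members, so that they are not independent. Each of them has the same exact p of 0.1, which therefore does not set Fabp7 to Fabp5 apart. The ratio of Etfb to Etfa ran from 1.89 to 2.18, that of Eci2 to Eci1 from 1.503 to 1.68 and that of Acsl6 to Acsl3 from 1.63 to 2.25, with overlapping genotypes in each.

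**Figure D4:**
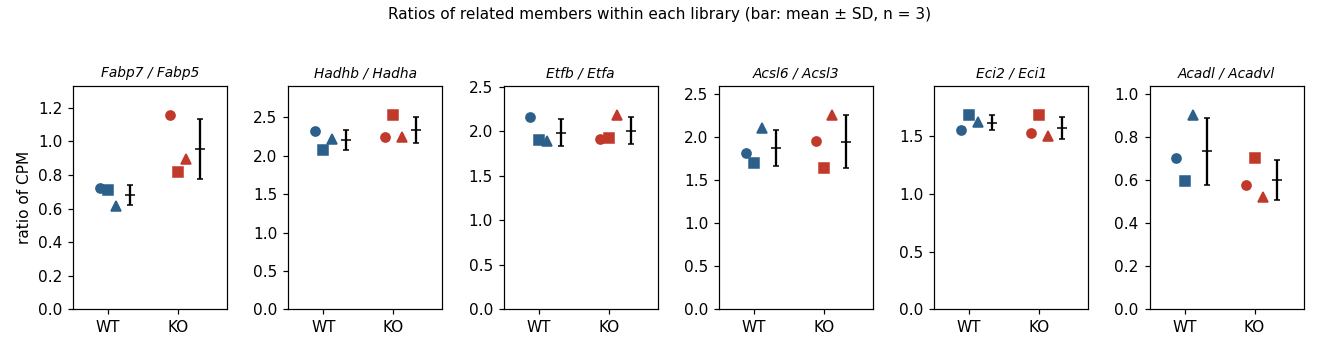
Ratio of CPM of 6 combinations of related genes within each library, wild type in blue and knockout in red, on axes from 0; black bars are mean ± SD. Fabp7 to Fabp5 is the 1 panel where the genotypes do not overlap.

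Other genes of the pathway, listed apart from the 28, also gave no call. Of 118 such genes 103 were tested, 49 were higher and 54 lower in the knockout, 3 had an unadjusted p under 0.05 and 0 passed. The genotypes did not overlap in 7 of them, 2 with the knockout above and 5 with it below, where all genes give the 2.95% and 3.25% given with the 28 genes.

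Of the 10 further ketone genes tested, 3 were higher and 7 lower (median -0.10), and 0 passed. Hmgcll1, which encodes a lyase that makes ketone bodies, is named after its values were seen. It had means of 5.58 ± 0.415 and 6.85 ± 0.864 CPM in knockout and wild type (SD, n = 3 per genotype; log2 fold change -0.29, SE 0.21), with each knockout library below each wild-type library.

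Angptl4, a secreted inhibitor of lipoprotein lipase and a known PPAR target, measured 13.9, 13.3 and 11.3 CPM in the wild type and 14.6, 29.4 and 17.6 CPM in the knockout. Each knockout library is above each wild-type library, with library 16 far above the other 5 (log2 fold change 0.67, SE 0.26, edgeR p = 0.0348, adjusted p = 1.00, exact permutation p = 0.1). Without knockout library 16 it was 0.33. Klf10, a transcription factor induced by TGF-beta, measured 9.03, 15.2 and 14.7 CPM in the wild type and 9.22, 8.73 and 8.16 CPM in the knockout, with wild-type library 13 among the knockout libraries (log2 fold change -0.58, SE 0.24, unadjusted p = 0.0393). Of the 28 regulators and reported PPARA targets tested, 17 were higher and 11 lower (median 0.015), and Fgf21, Cyp4a10 and Cyp4a14, targets known from liver, had no count in any library.

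Peroxisomes shorten very long chains before mitochondria take over. Of 19 peroxisomal genes tested 6 were higher and 13 lower in the knockout (median -0.10), with 0 at an unadjusted p under 0.05. Hacl1 and Acox3 are named after their values were seen. Hacl1, the lyase of alpha-oxidation, was lower in each knockout library than in each wild-type library (log2 fold change -0.19, SE 0.13). Acox3, an oxidase for branched chains, was higher in each (log2 fold change 0.12, SE 0.13). Scp2, the thiolase and sterol carrier, had a log2 fold change of -0.030.

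The medians of the remaining lists lay near 0, while single genes spread more widely. Log2 fold changes ran from -0.43 to 0.24 among the mitochondrial genes and from -0.17 to 0.64 among the uptake genes. Among the flavoprotein-related genes they ran from -0.28 to 0.16. For 16 further genes of mitochondrial oxidation the median log2 fold change was 0.043, with Crat, the carnitine acetyltransferase, at -0.19 and Pccb, a propionyl-CoA carboxylase subunit, at -0.054. For 18 genes of fatty acid uptake and activation it was -0.014, with Dbi, the acyl-CoA binding protein, at 0.011 and the thioesterase Acot11 at 0.0074. For 12 genes around the flavoprotein, most of them amino acid dehydrogenases, it was -0.029, with Ivd at -0.051 and Acadsb at -0.021. None of the genes of these 3 lists passed, with edgeR giving 0 at an unadjusted p under 0.05, and 0 were without overlap between the genotypes. The mean was higher in libraries 13, 14 and 16 for 9 of the 12 flavoprotein-related and 12 of the 16 mitochondrial genes. Among the 28 regulators and reported PPARA targets it was higher for 20, and among the 19 peroxisomal genes for 11. For the uptake genes the count was 8 of 18 and for the further ketone genes 3 of 10. Over all genes the share was 50.4%.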

How the data were processed

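The authors deposited expected counts per gene for 12 entries, 2 for each of 6 libraries. The submitters' processing notes name STAR 2.5.3a, RSEM 1.3.0, edgeR and mm10. Neither strand setting nor annotation release is given in the sources used here. The comparison table deposited by the authors gives a log2 fold change, a log2 CPM, p-values and adjusted p-values, and a scaled signal per entry, per the file headers; the signal was not used. Entries of 1 library differed by a median chi-square per feature of 0.467 to 0.494 where the summed count reached 20, against 2.93 to 18.8 between libraries of a group, so they were summed, rounded and counted as 1 sample.

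Features were filtered with filterByExpr, scaled by TMM and tested over all 14990 with edgeR's quasi-likelihood F test (4.0.16, limma 3.58.1, R 4.3.3) and Benjamini-Hochberg adjustment at 0.05. The fit had 4 residual degrees of freedom. SEs come from the F statistic, and log2 levels use a prior count of 2. The fit was also run on simulated counts, drawn independently for each library. These held no library effect shared across genes apart from size, so the run does not test the fit under the library differences seen here. Alternatives were RLE scaling, DESeq2 1.42.0, limma voom, no filter, the ribosomal RNA features left out, covariates and libraries left out.

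All 28 genes are named; of the other lists, those with an unadjusted p under 0.05 (at most 5 a list), otherwise the 2 with the highest mean CPM. Some genes of these lists are counted but not reported by name here. The genes and lists were chosen with earlier results of these data known.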

Additional observations from a re-analysis of the deposited data

How the results depend on the processing

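Under each of the 15 alternatives 0 of the 28 genes passed the threshold. Their median log2 fold change moved by less than 0.144, the SD of the per-library medians within genotypes. That bound is wide beside the median of -0.016 in the main fit, so it does not show the median to be stable. With 1 library left out the median ran from -0.077 to 0.11 and so took either sign. The number of genes called over all genes was 7 with DESeq2, 6 without a filter, 1 with the share of ribosomal RNA and 2 with the astrocyte marker level as a covariate, and 0 to 2 when 1 library was left out. Fmr1 missed the threshold in edgeR as reported (adjusted p = 0.300) and passed with DESeq2 (adjusted p = 5.07e-18) and in the edgeR fits without a filter (6.2e-05), with the share of ribosomal RNA (0.0139) or the astrocyte marker level (0.0228) as a covariate and without knockout library 18 (0.0103). Some log2 fold changes, none past the threshold, changed sign (new values in parentheses), and the cause was not tested. With RLE scaling these were those of Bdh1 (0.0051) and Eci2 (0.0045), with DESeq2 Bdh1 (0.0036) and Eci2 (0.0016), with limma voom Acaa2 (0.0048), Acads (-0.0038) and Bdh1 (0.010), without a filter Acads (-0.0036) and without the ribosomal RNA features Acads (-0.0028). With the title number as a covariate they were Acads (-0.078), Acat1 (-0.0043), Acot11 (-0.022), Decr1 (-0.13), Eci1 (-0.026), Etfdh (-0.026), Hadhb (-0.020), Ppara (-0.059) and Slc25a20 (-0.026). With the share of ribosomal RNA as a covariate they were Acads (-0.12), Acat1 (-0.0069), Acot11 (-0.0054), Bdh1 (0.13), Decr1 (-0.25), Ehhadh (-0.048), Etfdh (-0.058), Hadhb (-0.010), Ppara (-0.16) and Slc25a20 (-0.081). Without knockout libraries 14 and 16 they were Acads (-0.11), Acat1 (-0.010), Acot11 (-0.0020), Bdh1 (0.13), Decr1 (-0.28), Ehhadh (-0.13), Etfdh (-0.060), Hadhb (-0.0074), Ppara (-0.20) and Slc25a20 (-0.082). With the astrocyte marker level as a covariate they were Acads (-0.011) and Decr1 (-0.0013). Leaving out 1 library at a time changed the sign of 26 genes, counted over the 28 and the other named genes. Of these, Acadsb, Acot11, Crat, Dbi, Ivd, Pccb and Scp2 are not among the 28. The ranges were Acaa2 (-0.19 to 0.22), Acads (-0.089 to 0.12), Acadsb (-0.13 to 0.17), Acat1 (-0.013 to 0.17), Acot11 (-0.036 to 0.052), Acsbg1 (-0.033 to 0.16), Acsl3 (-0.30 to 0.10), Acsl6 (-0.16 to 0.10), Bdh1 (-0.10 to 0.11), Cpt1a (-0.13 to 0.030), Crat (-0.41 to 0.095), Dbi (-0.24 to 0.23), Decr1 (-0.081 to 0.23), Echs1 (-0.11 to 0.075), Eci1 (-0.048 to 0.18), Eci2 (-0.12 to 0.11), Etfb (-0.16 to 0.074), Hadh (-0.093 to 0.056), Hadha (-0.13 to 0.034), Hadhb (-0.045 to 0.16), Ivd (-0.14 to 0.024), Oxct1 (-0.15 to 0.0052), Pccb (-0.16 to 0.13), Ppara (-0.073 to 0.34), Scp2 (-0.093 to 0.071) and Slc25a20 (-0.059 to 0.20). With 3 libraries a group the exact permutation test cannot go below 0.1, and Ehhadh and Ppara have the lowest counts of the 28.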
